A study of Homo sapiens with 6 samples.

Results

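The genes described here are 10 components of bone morphogenetic protein (BMP) signalling: the ligands BMP4 and BMP7, the receptors BMPR1A and BMPR2, the signal carriers SMAD1 and SMAD5, and the target family ID1 to ID4. They were taken by gene name from a deposited expression table of 31016 genes, and each of the 10 had 1 row there. The table covers poly(A) RNA of DLD-1, a human colorectal adenocarcinoma cell line, in 6 libraries. In 3 libraries (TGFb_TFA 1 to 3) the cells had received TGF-β together with TFA, a flavone extract of Abelmoschus manihot. In the other 3 (TGFb 1 to 3) they had received TGF-β only. Both groups thus share TGF-β, and no cells without TGF-β are analysed here, so its own effect on these genes cannot be read from the data. The labels give 24, 25 and 26 hours of treatment for libraries 1, 2 and 3 of each group, and no dose. These hours go up by 1 with the library number in both groups, and whether they are true treatment times could not be checked, so nothing is compared by time. They do not say whether the libraries came from separate cultures, so p-values measure the spread between these libraries, which may be technical.

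BMPs are secreted ligands that bring type I receptors (such as BMPR1A) and type II receptors (such as BMPR2) together at the cell surface. The activated type I receptor phosphorylates SMAD1, SMAD5 and SMAD9, which enter the nucleus with SMAD4 and switch on genes, among which ID1, ID2 and ID3 are the classic early targets. ID proteins have a helix-loop-helix dimerization region but no DNA-binding region, so they tie up E proteins such as TCF3 and TCF12 and hold back differentiation factors of the bHLH class. In the intestine, BMP signalling is strong towards the top of the crypt and is held down at the crypt base by antagonists such as gremlin and noggin that come from stromal cells. TGF-β works mainly through SMAD2 and SMAD3, and in epithelial cells it can repress ID1 together with the stress factor ATF3.

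The ID family is the readout most often used for this pathway, and its members differed widely in level, so the promoters of its best studied member, ID1, and of its nearly silent member, ID4, are shown. Each line gives the 250 bases before the RefSeq start (GRCh38.p14), and capitals mark matches to the motifs named after the sequences.
ID1: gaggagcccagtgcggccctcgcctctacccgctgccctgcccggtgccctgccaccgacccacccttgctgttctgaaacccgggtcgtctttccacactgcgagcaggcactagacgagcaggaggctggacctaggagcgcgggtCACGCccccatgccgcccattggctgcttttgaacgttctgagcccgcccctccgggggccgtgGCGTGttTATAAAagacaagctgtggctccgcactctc
ID4: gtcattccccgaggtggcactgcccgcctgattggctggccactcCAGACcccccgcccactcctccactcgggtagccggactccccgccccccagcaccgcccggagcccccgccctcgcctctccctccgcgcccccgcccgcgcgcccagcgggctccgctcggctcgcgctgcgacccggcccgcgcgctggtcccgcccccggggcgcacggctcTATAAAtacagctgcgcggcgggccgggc

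The ID1 window is chr20:31605039-31605288 and the ID4 window chr6:19837120-19837369, both on the plus strand. A total of 4 motifs were searched. The core promoter sequence called the TATA box, searched on the gene strand only, was taken as TATAAA in full. The SMAD box, searched on both strands, was taken as CAGAC. The SMAD motif rich in G and C, which is its own reverse complement, was taken as GGCGCC. The core bound by the aryl hydrocarbon receptor (AhR), searched on both strands, was taken as GCGTG. Capitals in ID1 are the TATA box sequence starting at -31 and the AhR core starting at -102 (on the other strand) and at -38. Capitals in ID4 are the TATA box sequence starting at -29 and the SMAD box starting at -205. No match overlapped another in these windows. The GC-rich SMAD motif was not found in the windows of ID1, ID2, ID3 or ID4. Only these 250 bases per gene were searched, so sites farther upstream were not looked for. The SMAD box also had 1 match in ID3, starting at -147, and none in ID1 or ID2. The AhR core had 2 matches each in ID1, ID2 and ID3, and none in ID4. Among 35116 promoter windows of the same length, 6.80% held the TATA box sequence and 16.4% the GC-rich SMAD motif. The SMAD box was in 38.0% and the AhR core in 32.2%, so a match to either of these is common. G and C made up 66.0% of the ID1 window, 69.2% of ID2, 62.0% of ID3 and 78.8% of ID4. RefSeq promoters were found for 9 of the 10 members, all but BMP7. The last bases of the printed ID1 window lie inside the gene as the deposited table places it, since its start there comes before the RefSeq start. The windows of ID2 and ID3 are not printed.

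None of these genes passed a test for a difference with TFA. Of the 10 members, 9 were abundant enough to test, and 0 were called with edgeR (adjusted p under 0.05), against 0.0109% of all 18265 tested genes. By DESeq2 0 were called as well, against 0.0712% of genes. At an unadjusted p under 0.05 there were 0 members with either tool, against 1.83% of genes in edgeR and 425 of 18265 genes in DESeq2. Groups did not overlap in CPM (counts scaled to library size with TMM factors) in 0 of the 9, against 7.91% of genes. Fitted log2 fold changes (TGF-β with TFA over TGF-β) lay above 0 for 4 members and below 0 for 5, while 51.9% of all tested genes lay above 0. Their median was -0.01 for the members, beside 0.01 over all tested genes. With edgeR and Benjamini-Hochberg adjustment over all tested genes, adjusted p was 0.9997 for each of the 9.

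**Figure D1:**
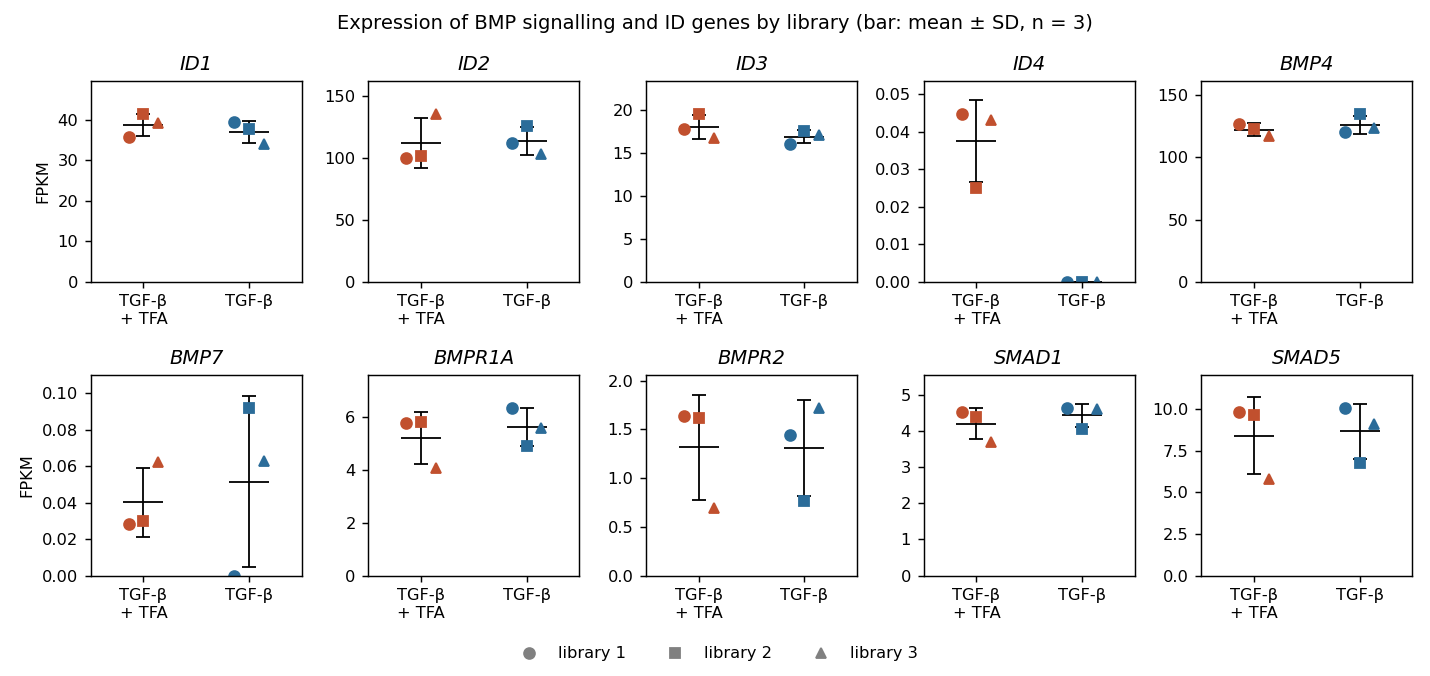
Deposited FPKM of the 10 genes (vertical axes, each from 0) in libraries with TGF-β and TFA (left, red) and TGF-β only (right, blue), with symbols for libraries 1, 2 and 3 and black bars for mean ± SD, n = 3. Groups overlap in every panel but that of ID4, where values with TFA are at most 0.0446 FPKM and those with TGF-β are 0.

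On the length-corrected FPKM scale, BMP4 and ID2 were the most abundant members. In order of mean FPKM followed ID1, ID3, SMAD5, BMPR1A, SMAD1, BMPR2, BMP7 and ID4, in both groups. BMP4 and ID2 overlapped in both groups, as did BMP7 and ID4. SMAD5 overlapped with BMPR1A, and BMPR1A with SMAD1, in the TFA libraries only. The other neighbours were separate in every library of each group.

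BMP4, a ligand that acts in development and in the crypt, lies on chromosome 14 from 53949736 to 53958761 (minus strand, GRCh38, positions of the table throughout). Its levels were 127, 123 and 117 FPKM with TGF-β and TFA, against 121, 135 and 123 FPKM with TGF-β. The groups overlapped, and the range over all libraries was narrow. Its mean was 122 ± 5.01 FPKM with TFA and 126 ± 7.39 FPKM with TGF-β (SD, n = 3), which placed it at rank 333 and 309 among all genes of the table. With TFA it differed by -0.01 on the log2 scale (SE 0.12; 95% interval -0.30 to 0.27), so the interval spans 0.814-fold to 1.21-fold.

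BMP4 stood almost alone among BMP ligands. It made up 98.5% to 98.6% of the summed FPKM of 11 ligand genes in the TFA libraries and 98.5% in each TGF-β library. BMP7 (chromosome 20, 57168753 to 57266641, minus strand), a ligand studied for bone and kidney development, had 11, 12 and 24 estimated counts with TFA, against 0, 38 and 25 with TGF-β. These are 0.0283, 0.0299 and 0.0622 FPKM with TFA, and 0, 0.0918 and 0.0630 FPKM with TGF-β. The TGF-β libraries held both the lowest and the highest value. Its fitted log2 fold change of -0.27 had a 95% interval that reached below -3 and up to 2.47, too wide to tell a rise from a fall. A single sequenced fragment seems to add about 4 counts in this table, so BMP7 rests on very few fragments. Among the other ligands, BMP8B and BMP2 were the most abundant, at means of 0.949 and 0.647 FPKM over the 6 libraries.

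BMPR1A (chromosome 10, 86756601 to 86932825, plus strand), the type I receptor mutated in juvenile polyposis, had 5.76, 5.81 and 4.07 FPKM with TFA, against 6.32, 4.89 and 5.60 FPKM with TGF-β. TGFb_TFA 3 was lowest and TGFb 1 highest, and the groups overlapped. The fit gave a log2 difference of -0.08 (SE 0.15; 95% interval -0.43 to 0.26). Reads of its processed pseudogenes BMPR1AP1 and BMPR1AP2 could be counted to either copy; BMPR1AP1 had 75, 37 and 20 counts with TFA and 27, 17 and 45 with TGF-β, beside 2636 to 4635 counts of BMPR1A itself.

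BMPR2 (chromosome 2, 202376327 to 202567751, plus strand), the type II receptor, varied most between libraries of a group among the members above 1 FPKM. It had 1.64, 1.61 and 0.694 FPKM with TFA, against 1.45, 0.767 and 1.72 FPKM with TGF-β. TGFb_TFA 3 and TGFb 2 were low, and the other 4 libraries lay at 1.45 FPKM or above. Group means were 1.32 ± 0.538 FPKM with TFA and 1.31 ± 0.489 FPKM with TGF-β (SD, n = 3). The log2 fold change of 0.01 had a 95% interval of -0.80 to 0.83, so changes from 0.573-fold to 1.77-fold lay within it.

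SMAD5 (chromosome 5, 136132845 to 136188747, plus strand), which carries the signal to the nucleus, showed the same low libraries. Its levels were 9.83, 9.66 and 5.79 FPKM with TFA, against 10.1, 6.80 and 9.14 FPKM with TGF-β. TGFb_TFA 3 and TGFb 2 were again below the rest. The fit gave a log2 difference of -0.03 (SE 0.20; 95% interval -0.49 to 0.44). SMAD5-AS1, the antisense gene of the locus, had 0, 0 and 19 counts with TFA and 0 in each TGF-β library. Whether counting kept the strands apart is not stated, so sense and antisense reads may be mixed.

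SMAD1 (chromosome 4, 145481194 to 145559176, plus strand), the other measured carrier, was the steadiest of the receptor and SMAD genes. It had 4.51, 4.38 and 3.70 FPKM with TFA, against 4.62, 4.07 and 4.61 FPKM with TGF-β. The groups overlapped, and the log2 fold change was -0.05 (SE 0.12; 95% interval -0.32 to 0.22). Among the carriers, SMAD5 made up 60.9% to 68.4% of the summed FPKM of SMAD1, SMAD5 and SMAD9 with TFA and 62.4% to 67.9% with TGF-β. SMAD9 was at a mean of 0.0714 FPKM.

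ID1 (chromosome 20, 31605283 to 31606515, plus strand), the ID gene whose promoter is printed above, had 35.9, 41.4 and 39.2 FPKM with TFA, against 39.4, 37.8 and 34.1 FPKM with TGF-β. The highest value was in TGFb_TFA 2 and the lowest in TGFb 3, and the groups overlapped. Group means were 38.8 ± 2.78 FPKM with TFA and 37.1 ± 2.74 FPKM with TGF-β (SD, n = 3). The log2 fold change of 0.10 (SE 0.14) had a 95% interval of -0.23 to 0.43, or 0.853-fold to 1.35-fold.

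ID2 (chromosome 2, 8678845 to 8684453, plus strand), which in mice is needed for innate lymphoid cells, had 99.9, 101 and 135 FPKM with TFA, against 112, 126 and 103 FPKM with TGF-β. TGFb_TFA 3 was highest, and the other TFA libraries were below all TGF-β libraries. Its log2 fold change was 0.03 (SE 0.21; 95% interval -0.45 to 0.51). Without TGFb_TFA 3 it was -0.22 and did not pass (adjusted p = 0.9992, edgeR with Benjamini-Hochberg adjustment). ID2 made up 62.5% to 70.7% of the summed FPKM of the ID family with TFA and 66.8% to 69.5% with TGF-β. Its antisense gene ID2-AS1 was at 0.223, 0.216 and 0.140 FPKM with TFA, and at 0.343, 0.215 and 0.207 FPKM with TGF-β.

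ID3 (chromosome 1, 23557926 to 23559501, minus strand), often regulated together with ID1, had 17.8, 19.5 and 16.8 FPKM with TFA, against 16.1, 17.6 and 17.1 FPKM with TGF-β. The groups overlapped within a narrow range. Its log2 fold change of 0.12 (SE 0.12; 95% interval -0.16 to 0.40) was the highest of the 9 tested members, and did not pass.

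ID4 (chromosome 6, 19837370 to 19842197, plus strand), known from neural and mammary cells and often silenced by promoter methylation in colorectal cancer, was at trace level. It had 12, 7 and 12 estimated counts with TFA (0.0446, 0.0249 and 0.0431 FPKM), against 0 in each TGF-β library. All TFA libraries were above all TGF-β libraries. At about 4 counts per fragment, a floor of 3 fragments corresponds to 12 counts per library, and no library lay above it, so no fold is given. ID4 was too low for the test. With no filter on low counts its unadjusted p was 0.00601 and its adjusted p 0.906 (edgeR quasi-likelihood test), in a fit where 617 of 31016 genes had an unadjusted p under 0.05. ID4 also entered the fits without TGFb_TFA 2, TGFb 1, TGFb 2 or TGFb 3, where its unadjusted p was 0.0110 to 0.0143 and its adjusted p at least 0.986 (edgeR). In those 4 fits it passed the filter only through the libraries with TFA, and all these p rest on libraries at or under the floor. In such bulk RNA, fewer expressing cells and less RNA per cell cannot be told apart.

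**Figure D2:**
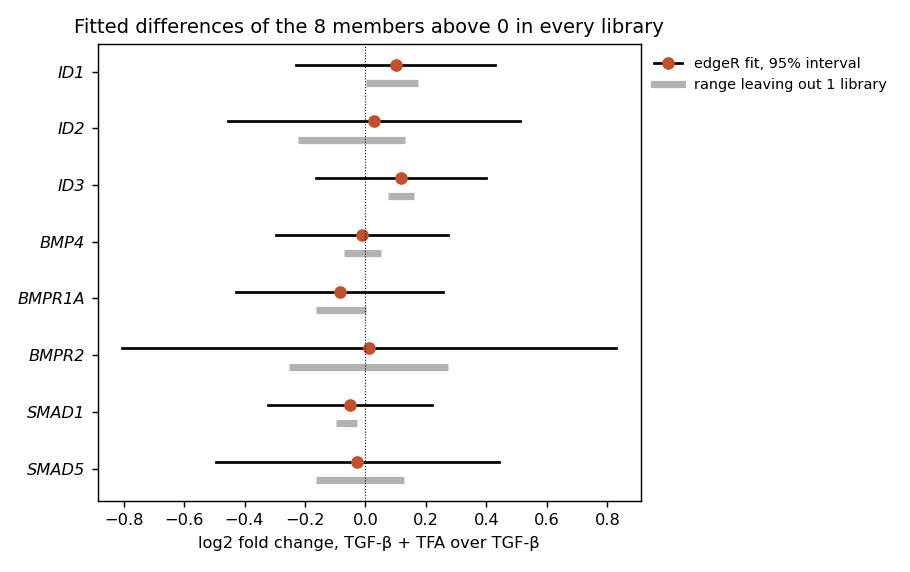
Fitted log2 fold changes, TGF-β with TFA over TGF-β, of the 8 members above 0 in every library (red points) with 95% intervals (black) and the range of values when 1 library is left out (grey bars). Every interval crosses 0; BMPR2 has the widest, from -0.80 to 0.83.

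For the 8 members above 0 in every library, CPM ranged more widely within a group than the group means differed. The deviations of libraries from the gene means were related to transcript length, in one direction in 2 libraries and in the other in the remaining 4. Effective length was taken from the ratio of count to FPKM, as a percentile among the tested genes. ID1, ID3, ID2 and BMP4 are short (percentiles 10.8, 13.4, 21.9 and 33.7). SMAD1, SMAD5, BMPR1A and BMPR2 are long (percentiles 75.2, 85.4, 87.3 and 94.3).

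In TGFb_TFA 3 the short members lay above their mean CPM over the 6 libraries and the long ones below it. On the log2 CPM scale, the deviations there were 0.22 for ID1, 0.11 for ID3, 0.44 for ID2 and 0.08 for BMP4. They were -0.05 for SMAD1, -0.37 for SMAD5, -0.23 for BMPR1A and -0.66 for BMPR2. TGFb 2 had the same signs in all 8, from 0.18 for ID2 to -0.67 for BMPR2. TGFb_TFA 1 and TGFb 3 had the opposite sign in all 8, with the short members below their mean and the long ones above it. Because the deviations of a gene add up to 0 over the libraries, the patterns of opposite sign are not independent. TGFb_TFA 2 and TGFb 1 had that opposite pattern in part: ID1 and, in TGFb_TFA 2, ID3 lay above their mean, and SMAD1 lay below it in TGFb_TFA 2. Over all tested genes the libraries split likewise: the shortest 10% of genes had a median deviation of 0.36 in TGFb_TFA 3 and 0.10 in TGFb 2, and the longest 10% had -0.33 and -0.16. In the other 4 libraries the shortest 10% lay between -0.12 and -0.02 and the longest between 0.09 and 0.20. With offsets that remove each library's length trend, the log2 fold changes were 0.06 for ID1, -0.02 for ID2, 0.09 for ID3, 0.04 for BMPR2 and 0.0010 for SMAD5. Leaving out TGFb 2 and TGFb_TFA 3 together, a choice made after seeing the data, gave 0.01 for BMPR2, -0.01 for SMAD5, 0.04 for ID1, 0.14 for ID3 and -0.12 for ID2. In neither fit was a member called. The signs by library given here hold for CPM, and the order of libraries depends on the scale. In FPKM, BMP4 was lowest of the 6 libraries in TGFb_TFA 3 (117 FPKM). ID1 was highest in TGFb_TFA 2 in FPKM (41.4 FPKM), but in TGFb_TFA 3 in CPM.

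**Figure D3:**
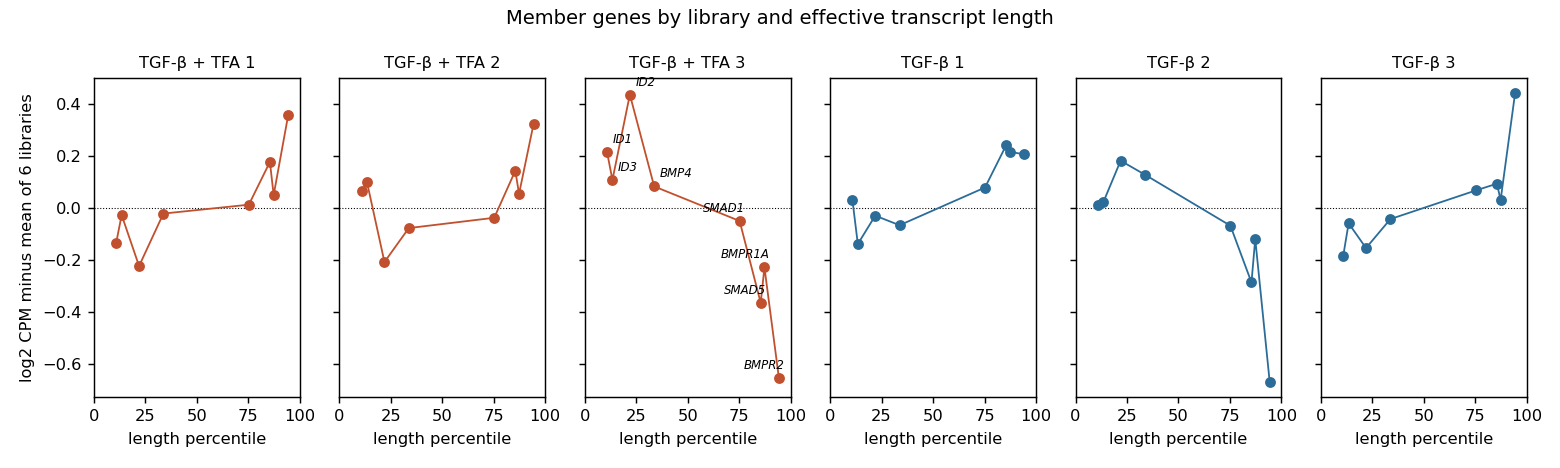
Log2 CPM of 8 members minus their mean over the 6 libraries (vertical axis) against the percentile of effective transcript length (horizontal axis), 1 panel per library, with TGF-β and TFA in red and TGF-β in blue. TGFb_TFA 3 and TGFb 2 slope downwards, with BMPR2 at -0.66 and -0.67, and the other 4 panels slope upwards, with BMPR2 between 0.21 and 0.44.

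Genes with a library profile most like that of ID1 were sought among 5611 others at a mean of at least 5 FPKM. Likeness was the root-mean-square distance between log2 CPM values over the 6 libraries, each centred on its gene's mean. The closest were MIS18A (0.027), HADH (0.032), NIT2 (0.037), HOXB6 (0.041) and MRRF (0.045). ID3 ranked 712, BMP4 1157 and ID2 2265 on this measure, so many genes outside the family stood closer to ID1 than ID2 or ID3 did. The distance is a description of 6 libraries that share the length pattern above.

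Other genes of the pathway were taken from 9 lists with 79 entries, of which 73 had a row in the table and 58 were tested. None of the 58 was called by edgeR or by DESeq2, against 0.0109% of all genes in edgeR. At an unadjusted p under 0.05 edgeR gave 1 higher, GREM1 (1.07% of all genes), and 1 lower, EGR1 (0.761%). GREM1 passed the filter on low counts only through the libraries with TFA, so its p supports no difference. Groups did not overlap in 4 that were higher (4.58% of all genes): GREM1, FST, FSTL1 and ATOH8. They did not overlap in 5 that were lower (3.33%): BMP2, CHRD, FSTL3, MSX2 and EGR1. Of these 9, GREM1 and CHRD had a group mean at or under 12 counts. CHRD passed the filter on low counts only through the TGF-β libraries, so its lack of overlap supports no difference. FST had 33, 27 and 28 counts with TFA, against 0, 22 and 21 with TGF-β. FSTL1 had 370, 403 and 425 counts with TFA, against 0, 260 and 261 with TGF-β. Both were at 0 only in TGFb 1, as were RGMA, CHRDL1 and BMP7. Of the 9 genes whose groups did not overlap, those outside the naming rule were picked after their values were seen. Fitted values were above 0 for 22 and below 0 for 36, with a median of -0.05 beside 0.01 over all genes. Over all tested genes 51.9% were above 0. The 58 include BMP5, CHRD, GREM1 and HEY2, each with a group mean at or under 12 counts.

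Among the other receptors and co-receptors (8 tested, 4 fitted above 0 and 4 below), the most abundant was ACVR2A, a type II receptor shared with activins. ACVR2A had 2.31 ± 0.683 FPKM with TFA and 2.40 ± 0.495 FPKM with TGF-β (SD, n = 3), a log2 fold change of -0.04 (95% interval -0.55 to 0.47). NEO1, which binds the RGM co-receptors, had -0.17 (95% interval -0.89 to 0.55). SMAD4, the shared partner of all these SMADs, was at 3.04 ± 0.565 FPKM with TFA and 3.15 ± 0.214 FPKM with TGF-β, with a log2 fold change of -0.03 (SE 0.13).

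The inhibitors inside the cell and at its membrane numbered 10 tested genes, with 2 fitted above 0 and 8 below. BAMBI, a decoy receptor without a kinase, had 14.5 ± 1.10 FPKM with TFA and 15.5 ± 0.907 FPKM with TGF-β, a log2 fold change of -0.06 (SE 0.13). CTDSP1, a phosphatase of SMADs, had -0.02 (SE 0.12). SMAD6 and SMAD7, feedback inhibitors that BMP and TGF-β signalling switch on, had -0.38 (95% interval -1.20 to 0.45) and 0.17 (95% interval -0.15 to 0.49).

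Of the extracellular antagonists and modulators, 12 were tested, with 6 fitted above 0 and 6 below. TWSG1, a BMP-binding modulator, and NBL1, a secreted antagonist, were the most abundant and had log2 fold changes of -0.07 (SE 0.13) and 0.03 (SE 0.13). GREM1, the stromal antagonist gremlin, had 12, 57 and 11 counts with TFA, against 0, 4 and 4 with TGF-β. Every library with TFA was above every library without it, at levels of at most 0.0549 FPKM. It passed the filter on low counts only through the libraries with TFA, and the TGF-β libraries lay under the floor of 12 counts, so no fold is given and its p supports no difference. Fibroblast markers, summed over 10 genes, were at 0.464, 1.97 and 2.40 FPKM with TFA and 0.0630, 0.312 and 0.373 FPKM with TGF-β. Of the 10, 0 reached 1 FPKM in all libraries. Only COL1A2, COL6A3 and PDGFRA were separate between groups. The others, such as COL1A1, THY1, FAP and PDGFRB, overlapped or shared values of 0. Within the TFA libraries the fibroblast sum was highest in TGFb_TFA 3 and lowest in TGFb_TFA 1. GREM1 was lowest in TGFb_TFA 3 by counts (11), but in TGFb_TFA 1 by CPM (0.191, against 0.204 in TGFb_TFA 3). The part of fibroblast markers in the values of GREM1 and ID4 was not tested. By contrast, 8 of 10 colorectal epithelial markers reached 1 FPKM in all libraries, with sums of 1434 to 1583 FPKM with TFA and 1546 to 1818 FPKM with TGF-β, led by KRT18 and KRT8. Endothelial sums were 2.04 to 2.38 FPKM with TFA and 1.55 to 1.99 FPKM with TGF-β. Of the 8 endothelial markers only EGFL7, whose groups overlapped, reached 1 FPKM in all libraries (1.09 to 1.49 FPKM). Haematopoietic sums were 0.434 to 0.862 FPKM with TFA and 0.360 to 0.523 FPKM with TGF-β. They cover 6 of 8 markers, since PTPRC and CD3E had no row.

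BMP targets outside the ID family numbered 8 tested genes, with 2 fitted above 0 and 6 below. JUNB, an AP-1 factor, had a log2 fold change of -0.15 (SE 0.12). HES1, a repressor also switched on by Notch, had 8.38, 7.91 and 8.62 FPKM with TFA, against 9.64, 10.5 and 10.3 FPKM with TGF-β. On the FPKM scale its groups did not overlap, while in CPM they did, with 18.7, 17.5 and 22.4 CPM with TFA against 21.9, 24.4 and 23.3 CPM with TGF-β, and the log2 fold change of -0.25 (95% interval -0.58 to 0.08) did not pass. MSX2, a homeobox target named after its values were seen, had 8.02, 8.82 and 7.64 FPKM with TFA, against 9.74, 10.1 and 10.03 FPKM with TGF-β. Its groups did not overlap on either scale, and the log2 fold change was -0.26 (95% interval -0.54 to 0.02; unadjusted p = 0.0665, adjusted p = 0.9997, edgeR with Benjamini-Hochberg adjustment). BMP2, a ligand close to BMP4, had 0.614, 0.604 and 0.422 FPKM with TFA, against 0.747, 0.741 and 0.752 FPKM with TGF-β, a log2 fold change of -0.43 (95% interval -0.91 to 0.05).

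The partners of ID proteins and the bHLH factors they hold back numbered 5 tested genes, with 1 fitted above 0 and 4 below. ASCL2, a bHLH factor of intestinal stem cells, differed by -0.05 on the log2 scale (SE 0.17). HES4, a repressor related to HES1, differed by -0.06 (SE 0.19). TCF3, the E protein that ID proteins bind, was at 6.41 ± 1.81 FPKM with TFA and 6.52 ± 0.942 FPKM with TGF-β (SD, n = 3). Of the inhibitors of cyclin-dependent kinases (5 tested, 4 fitted above 0 and 1 below), CDKN1B had 0.04 (SE 0.11) and CDKN1A 0.11 (SE 0.18).

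Other regulators of ID transcription were all fitted below 0 (4 of 4 tested), though ATF3 only at -0.0049. EGR1, an immediate early factor that can act on the ID1 promoter, had 4.67, 3.85 and 2.26 FPKM with TFA, against 5.29, 5.07 and 7.51 FPKM with TGF-β. Its groups did not overlap, and TGFb_TFA 3 was lowest. EGR1 differed by -0.72 on the log2 scale (SE 0.25; 95% interval -1.29 to -0.15). Its unadjusted p was 0.0201 and its adjusted p 0.9997 (edgeR with Benjamini-Hochberg adjustment). SMAD2, a carrier of the TGF-β signal, had -0.06 (SE 0.12).

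**Figure D4:**
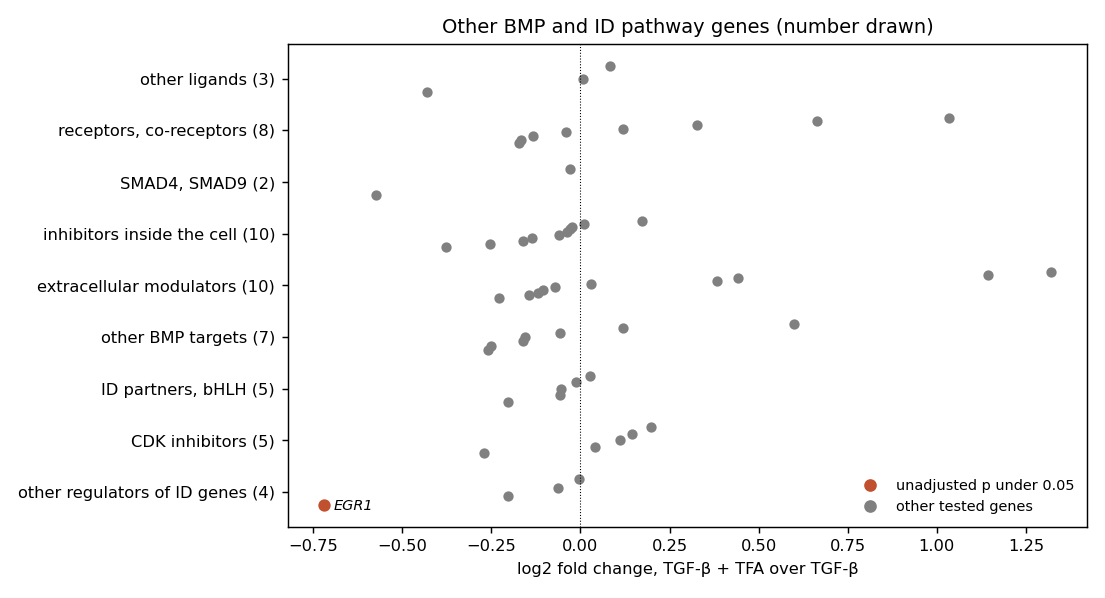
Fitted log2 fold changes, TGF-β with TFA over TGF-β (horizontal axis), of 54 of the 58 tested pathway genes, grouped by list with the number drawn in brackets; BMP5, CHRD, GREM1 and HEY2, with a group mean at or under 12 counts, are not drawn. EGR1 at -0.72, in red, had an unadjusted p under 0.05; all others are grey, and none passed adjustment.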

How the data were processed

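Poly(A) RNA of 6 libraries was sequenced, with strand kept by dUTP labelling per the labels' protocols. StringTie 1.3.4d, HISAT2 2.0.4, cutadapt 1.9 and the build GRCh38 are listed, without their roles, per the submitters' processing notes. Use of the strand or of molecular identifiers in counting is not stated there. The deposited table holds FPKM values and estimated counts, as the authors made them. Totals were 60361756 to 68745953 estimated counts per library, but a count of 4 was more common (1032 to 1271 genes) than 3 (601 to 685) or 5 (345 to 396), so totals overstate fragments and coverage-based counting is likely. Intervals and floors cover the measured spread or counting error only.

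The main test was edgeR 4.0.16 (R 4.3.3) on the estimated counts: filterByExpr, TMM, glmQLFit and glmQLFTest with group only, 2-sided, Benjamini-Hochberg over 18265 genes. The SE is the log2 fold change over the square root of F. The test was run on simulated data, where it recovered 4% of changes of 1.5-fold, 63.5% of 2-fold and 98.5% of 4-fold. The share of false calls was above the threshold of 0.05 at each size. The simulated spread followed the general trend over genes and held no length pattern, unlike these libraries. Thus 0 calls exclude neither small changes nor every change of 2-fold. DESeq2 1.42.0 and limma 3.58.1 (limma-trend on log2 of FPKM plus a pseudocount of 0.5, 0.1 or 1) were alternatives. Named genes were all members, list genes with an unadjusted p under 0.05 and the 2 most abundant of each list; SMAD6, SMAD7, TCF3, MSX2, the antisense genes and pseudogenes, and genes named only for groups that did not overlap were added after their values were seen. Members and lists were chosen with earlier results of these data known.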

Additional observations from a re-analysis of the deposited data

How the results depend on the processing

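No member was called under any of 19 alternatives. For the 9 members of the main test 164 values could be computed, and the lowest adjusted p was 0.887 (edgeR, TGFb 1 and TGFb_TFA 3 left out together). ID4 could be fitted in 5 alternatives (no filter, and without TGFb_TFA 2, TGFb 1, TGFb 2 or TGFb 3), with unadjusted p of 0.00601 to 0.0143 and adjusted p of at least 0.906, on counts at or under the floor. Signs of the small values were not stable: 29 of the 164 had the opposite sign. ID2 was -0.029 in limma-trend with each pseudocount (0.5, 0.1 and 1), -0.016 with length offsets, -0.026 with length offsets and the replicate block, -0.25 without TGFb 1 and TGFb_TFA 3, and -0.12 without TGFb 2 and TGFb_TFA 3. BMPR2 was -0.0058, -0.014 and -0.0023 in limma-trend with pseudocounts of 0.5, 0.1 and 1. SMAD5 was 0.0010 with length offsets, 0.0061 with offsets and the replicate block, and 0.23 without TGFb 1 and TGFb_TFA 3. BMPR1A was 0.082 without TGFb 1 and TGFb_TFA 3. BMP4 was 0.0062 without TGFb 2 and TGFb_TFA 3. BMP7 was 0.47 with the replicate block and 0.51 with block and offsets. The cause was not tested.

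Leaving out 1 library gave 0.0023 to 0.17 for ID1, -0.22 to 0.13 for ID2, 0.074 to 0.16 for ID3, -0.071 to 0.051 for BMP4, -0.86 to 0.47 for BMP7, -0.16 to 0.0031 for BMPR1A, -0.25 to 0.27 for BMPR2, -0.098 to -0.030 for SMAD1 and -0.16 to 0.13 for SMAD5. Over all genes, 2 were called by edgeR, 13 by DESeq2, 1 with the replicate block, 1 with block and length offsets, and 1 to 3 without 1 library. Libraries with the same number in both groups had correlations of deviations from group means of 0.04, -0.12 and -0.13, so the numbers do not show a pairing; the block called 0 members. ID1, ID3 and SMAD1 kept their sign under all alternatives in which they could be tested. BMP7 could not be tested in limma-trend, with counts divided by 4 or at a mean FPKM of at least 5, nor BMPR2 and SMAD1 at that mean. At about 4 counts per fragment, the values of BMP7 and ID4 rest on very few fragments.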
